A study of Saturnispora dispora and Saturnispora hagleri and Saturnispora mendoncae with 16 samples.

Results

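Transcript levels of *Saturnispora hagleri* (Shag) were set against those of *Saturnispora dispora* (Sdis), the 2 species of the RNA-seq experiment that acidify their medium rapidly, that is, with a rapid extracellular acidification rate (ECAR). The 8 libraries of these species were chosen by their labels, 4 of Shag and 4 of Sdis out of 16 in the series. The other 8 libraries come from *Saturnispora mendoncae* (Smen) and *Saturnispora silvae* (Ssil), which have low ECAR, and they are used here for reference, as a measure of expression in the genus outside the pair. They were collected after 18 h, so species and hour of collection cannot be told apart wherever Smen and Ssil are set against the pair. Both rapid ECAR species were unmodified budding yeasts for which the labels name no strain, grown with 2% glucose in synthetic complete medium at room temperature, in cultures of 50 ml that were started at an OD600 of 0.05 and shaken at 225 rpm in baffled flasks of 250 ml. Both were collected in log phase after 15 h, so the hour of collection does not separate them. The comparison asks how far the transcriptomes of a pair of rapid ECAR species differ from each other. The study calls the 4 samples of a species biological replicates.

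Levels are in transcripts per 1000000 (TPM), which the authors computed per orthogroup, a family of genes that descend from 1 gene of the common ancestor. Of 5029 orthogroups in the table, 4747 had a value in both species, 93 had a value in Shag and not in Sdis, 65 had a value in Sdis and not in Shag, and 124 had a value in neither. The 4552 orthogroups with a mean of at least 5 TPM over the 8 libraries were tested, which includes 96 whose mean was under 5 TPM in Sdis and 21 whose mean was under 5 TPM in Shag. The Shag libraries held 8828330 to 12125393 counts in genes and the Sdis libraries 9748544 to 12518835. Reads outside annotated genes made up 3.08% to 4.10% of the reads in Shag and 2.50% to 9.20% in Sdis, where replicate 4 alone accounts for the upper end and the other replicates lie at or under 3.19%. The replicates of Shag scattered more widely than those of Sdis: the median SD of an orthogroup over replicates was 0.30 in Shag and 0.15 in Sdis on the log2(TPM + 1) scale.

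Glycolysis converts glucose to pyruvate, and yeasts that ferment then turn pyruvate into ethanol through acetaldehyde, the last step being catalysed by alcohol dehydrogenase. Sugar enters through hexose transporters and is trapped by phosphorylation, the hexose is split by aldolase into triose phosphates, and the later part of the pathway, from glyceraldehyde-3-phosphate to pyruvate, returns ATP. In *Saccharomyces cerevisiae*, Gal4p is the activator of the galactose genes. The files name no genes; the study's own gene lists name 10 that could be tied to an orthogroup, and most of these lists concern genes with predicted transcription factor binding sites in their promoters. No coding sequence or promoter is shown, since no sequence of these species was used here.

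*ADH*, the alcohol dehydrogenase orthogroup, was the only named gene whose expression differed between the 2 species both in TPM and after rescaling. *HXK* and *PFK*, which encode the hexokinase and the phosphofructokinase of upper glycolysis, were higher in Shag in TPM, but no more so than the typical orthogroup. The genes of lower glycolysis that could be measured, *TDH*, *GPM* and *ENO*, had nearly the same mean TPM in both species, with a difference below the typical one. Over all 4552 orthogroups the median difference, Shag minus Sdis, was 0.43 on the log2(TPM + 1) scale, so that each gene is given below both in TPM and after a rescaling of the libraries by median ratios, which brings the median difference to -0.01. The added pseudocount of 1 TPM shrinks the differences of weakly expressed genes.

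**Figure D1:**
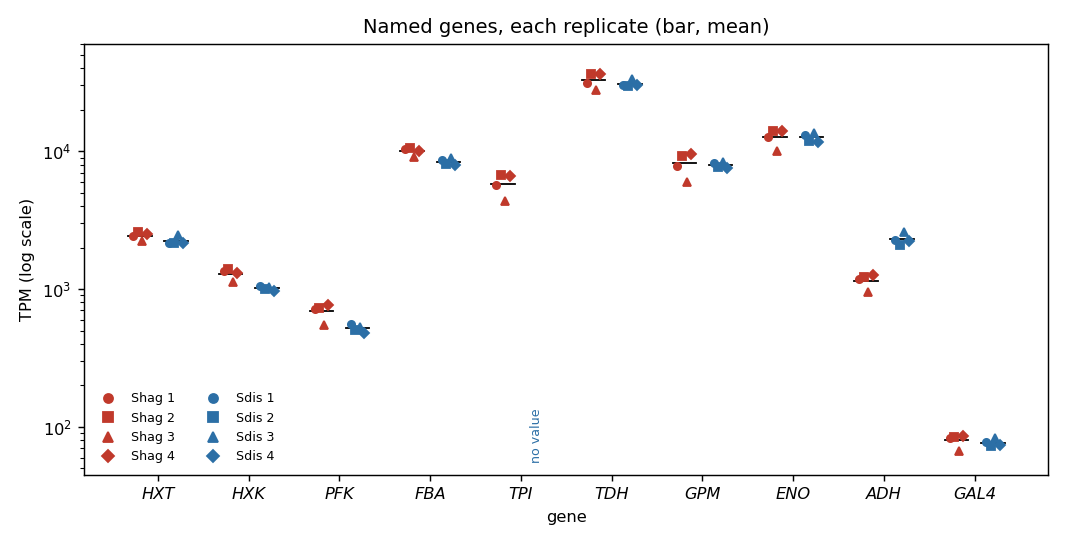
TPM (log axis) of the 10 named genes in each replicate of Shag (red, left) and Sdis (blue, right), with the mean as a bar; *TPI* has no value in Sdis. *ADH* lies between 956 and 1257 TPM in Shag and between 2087 and 2600.5 TPM in Sdis, and Shag replicate 3 (triangle) is the lowest Shag library for all 10 genes.

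*HXT* encodes a hexose transporter of the plasma membrane. Its 4 Shag libraries had 2427, 2576, 2216 and 2520.4 TPM, and its Sdis libraries had 2153, 2149.8, 2469 and 2177 TPM. The groups overlapped, because Sdis replicate 3 stood above 2 of the Shag libraries. The difference of 0.12 (SE 0.10) was not called in limma (adjusted p = 0.302), and it was -0.33 (SE 0.14) after rescaling by the median ratio (adjusted p = 0.0720). After quantile normalization it was 0.44 (limma adjusted p = 0.0400), so the direction of *HXT* turned with the scaling and none is given for it.

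*HXK* was measured at 1345, 1402, 1125 and 1310.2 TPM in Shag and at 1051, 999.7, 1040.2 and 964 TPM in Sdis. Every Shag library was above every Sdis library, with Shag replicate 3 the nearest to Sdis. The difference was 0.35 (SE 0.10; limma adjusted p = 0.0131), and the exact two-sided permutation p was 0.0286, as low as 4 against 4 replicates can reach, and 0.0857 after adjustment over the 9 named genes compared. Rescaled by the median ratio, the difference was -0.10 (SE 0.12; limma adjusted p = 0.487), so the call was lost.

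*PFK*, which catalyses the committed step of glycolysis, is an orthogroup of 2 genes in each species. Its level, the counts of both genes over their summed length and not a sum of their TPM, was 715, 733, 549 and 773 TPM in Shag. In Sdis it was 559, 509, 529 and 478 TPM. All Shag libraries but replicate 3 were above the Sdis libraries. The difference of 0.41 (SE 0.12; limma adjusted p = 0.0172) fell short of the median of 0.43 over all orthogroups, and after rescaling it was -0.05 (SE 0.11; limma adjusted p = 0.719). After quantile normalization it was 0.30 and still called (limma adjusted p = 0.0416). Without Shag replicate 2 or without Sdis replicate 4, the adjusted p in TPM was 0.0521 and 0.0561.

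The pair of *PFK* genes contributed nearly equal counts in both species. In Shag, g001509 took 46.7%, 50.2%, 45.2% and 50.8% of the counts of the orthogroup, and in Sdis, g002074 took 46.9%, 48.2%, 46.9% and 44.8%. The coding lengths of single members of an orthogroup are not known here, only their sum of 1937 codons in each species, so these are shares of counts and not of transcripts. The genes of one species were not matched to those of the other.

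*FBA* encodes the aldolase that splits the hexose. It stood at 10325, 10513, 9156 and 10106 TPM in Shag, against 8709, 8057, 8889 and 7955 TPM in Sdis, with no overlap of the groups. The exact permutation p was 0.0286 (0.0857 over the 9 genes), while limma gave a difference of 0.25 (SE 0.11) that was not called (adjusted p = 0.0637). After rescaling the difference was -0.20 (SE 0.16; limma adjusted p = 0.311). Without Shag replicate 3 the adjusted p in TPM was 0.0295. *FBA* was the 5th or 6th highest orthogroup in each Shag library and between the 7th and the 11th highest in Sdis libraries.

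*TPI*, which encodes the triose phosphate isomerase that interconverts the aldolase products, had a value in Shag and none in Sdis. It was measured at 5658, 6748, 4323 and 6588 TPM in Shag, against 2325 to 2534 TPM in Smen and 2314 to 2822 TPM in Ssil. All Shag libraries were above all 8 low ECAR libraries, which is a comparison of ranges with no test, between cultures collected at different hours. *HXT*, *HXK*, *FBA*, *TDH*, *GPM* and *ENO* shared this order, whereas *PFK*, *ADH* and *GAL4* did not. The share over all orthogroups was not counted. A missing value says only that the orthogroup holds no gene of Sdis in this table, not that Sdis lacks the enzyme, and the supplementary gene table of the study lists a *TPI* gene for that species.

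*TDH* encodes glyceraldehyde-3-phosphate dehydrogenase and was the highest orthogroup in each of the 8 libraries. Its levels were 31479, 36086, 27611 and 36382 TPM in Shag and 30424, 29822, 33297 and 30481 TPM in Sdis. The Shag libraries fell on both sides of all Sdis libraries. The difference was 0.08 (SE 0.14; limma adjusted p = 0.641) and the exact permutation p was 0.400. After rescaling it was -0.38 (SE 0.18; limma adjusted p = 0.108), whereas DESeq2 on the counts called *TDH* lower in Shag (-0.38; adjusted p = 0.00138).

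*GPM* encodes the phosphoglycerate mutase. It had 7872, 9197, 6019 and 9605 TPM in Shag and 8279, 7652, 8402 and 7557 TPM in Sdis, so that the Sdis values lay inside the Shag range. *ENO*, the enolase gene, had 12793, 13984, 10096 and 14086 TPM in Shag and 13213, 11882, 13628 and 11680.1 TPM in Sdis, again inside the Shag range. In TPM neither was called (0.01, SE 0.16, adjusted p = 0.942 for *GPM*, and 0.01, SE 0.14, adjusted p = 0.970 for *ENO*, both in limma). After rescaling by the median ratio both were called lower in Shag, at -0.44 (SE 0.15; limma adjusted p = 0.0325) for *GPM* and -0.45 (SE 0.16; limma adjusted p = 0.0396) for *ENO*, whereas after quantile normalization they stood at 0.11 and 0.03 and were not called.

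*ADH* is an orthogroup of 3 genes in each species with a summed coding length of 1092 codons in both. Its level was 1184, 1221, 956 and 1257 TPM in Shag and 2256, 2087, 2600.5 and 2237 TPM in Sdis. No Shag library reached the lowest Sdis library, and the mean of Shag was 0.503 times that of Sdis. The fitted difference of *ADH*, Shag minus Sdis, was -0.99 (SE 0.12; limma adjusted p = 0.000211), with an exact permutation p of 0.0286 (0.0857 over the 9 genes). After rescaling it was -1.45 (SE 0.14; limma adjusted p = 6.47e-05).

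A single gene carried the *ADH* orthogroup in both species, and it is the gene that the study names *ADH*. In Shag, g001303 held 97.3% to 97.6% of the counts, which is 3969, 3979.6, 3337 and 3981 counts per 1000000 counts in genes (CPM). In Sdis, g003328 held 98.6% to 99.0%, with 8024, 7478, 9102 and 8164 CPM. The groups did not overlap. The minor members g002885 and g005126 of Shag stayed between 18.3 and 81.3 CPM, and the minor members of Sdis were at 83.5 to 113 (g003257) and at 0.64 to 1.46 (g000155) CPM. The lower *ADH* level in Shag therefore lay in the major gene of the orthogroup.

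**Figure D2:**
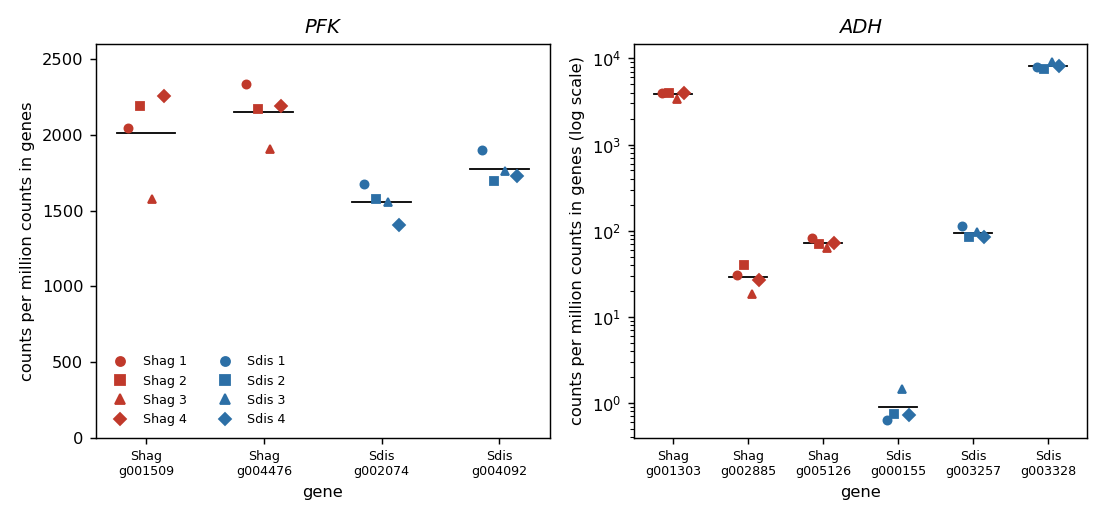
Counts per 1000000 counts in genes (CPM) for each member of the *PFK* (linear axis from 0) and *ADH* (log axis) orthogroups in each replicate of Shag (red, left) and Sdis (blue, right), with the mean as a bar. Both *PFK* members are of like level within a species, whereas 1 *ADH* member of each species lies far above the others, at 3337 to 3981 in Shag and 7478 to 9102 in Sdis.

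*GAL4*, the ortholog of the transcriptional activator Gal4p, was expressed far below the glycolytic genes but above the median orthogroup, at 83.7, 84.5, 67.1 and 85.7 TPM in Shag and 77.6, 73.3, 83.5 and 73.6 TPM in Sdis. Shag replicate 3 was below all Sdis libraries and the other Shag replicates were above them. The difference was 0.05 (SE 0.11; limma adjusted p = 0.687) in TPM and -0.39 (SE 0.11; limma adjusted p = 0.0140) after rescaling. *GAL4* ranked between the 1425th and the 1637th orthogroup in Shag libraries and between the 1208th and the 1428th in Sdis libraries.

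By pathway step, 2 of the 3 upper glycolytic genes compared (*HXK*, *PFK*) rose in TPM in Shag, against 50.4% of all orthogroups tested. None of the 3 lower glycolytic genes (*TDH*, *GPM*, *ENO*), *HXT* or *GAL4* did, and *ADH* fell, against 13.4% of all tested. After rescaling 0 of the 9 were called higher, against 28.3% of all tested, and 4 were called lower (*GPM*, *ENO*, *ADH*, *GAL4*), against 30.1%. The median difference over the 9 was 0.08 in TPM and -0.38 after rescaling. No table used here names the genes of the phosphoglucose isomerase, phosphoglycerate kinase, pyruvate kinase and pyruvate decarboxylase steps, of pyruvate dehydrogenase, pyruvate carboxylase, the TCA cycle or the glyoxylate shunt, and 0 of them were compared.

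The order of levels among the named genes was largely shared. *TDH* was followed by *ENO*, *FBA* and *GPM* in each of the 8 libraries, and *PFK* and then *GAL4* came last. The exception was *ADH*, which lay below *HXT* and *HXK* in each of the 4 Shag libraries, while in Sdis it lay above *HXK* in each library and on both sides of *HXT*. This order is one of TPM, which divides the summed counts of an orthogroup by the summed length of its genes, several for *PFK* and *ADH*. By share of counts in Shag, *ADH* (0.342% to 0.409%) and *PFK* (0.348% to 0.445%) lay above *HXK* (0.173% to 0.202%). *ADH* then lay on both sides of *HXT* (0.383% to 0.417%). Together the 8 genes of sugar uptake, glycolysis and fermentation compared here took 6.81%, 7.57%, 5.77% and 7.60% of TPM in Shag and 6.66%, 6.32%, 7.09% and 6.35% in Sdis. The Shag values enclosed those of Sdis.

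Across the transcriptome, far more orthogroups were higher than lower in Shag in TPM as deposited, and the excess was absent after rescaling, which sets the median difference near 0. In limma with Benjamini-Hochberg adjustment, 2292 orthogroups (50.4%) were higher and 609 (13.4%) lower in Shag at an adjusted p of 0.05, and 1651 were not called. After rescaling by the median ratio, 1286 (28.3%) were higher and 1368 (30.1%) lower. Of the 2292, 1286 were still called higher and 1006 were no longer called. All 609 orthogroups called lower in TPM were also called lower after rescaling, joined by 759 that TPM had left uncalled, and none changed sides.

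A core of calls was shared by 5 analyses of the same libraries. Their scalings are not all distinct, since median-ratio rescaling, edgeR and DESeq2 gave nearly the same differences for the named genes compared. Part of the overlap is therefore built in. In TPM, after median-ratio rescaling and quantile normalization, and in edgeR and DESeq2 on the counts, 1175 orthogroups were called higher and 554 lower in Shag each time. The sizes were mostly modest: the quartiles of the difference in TPM were -0.04 and 0.83, and 768 orthogroups were over 1 and 197 under -1 on the log2 scale. After rescaling the balance turned, with 298 over 1 and 486 under -1. In 1971 orthogroups (43.3%) every Shag library lay above every Sdis library, and in 521 (11.4%) every Shag library lay below. The rank order of mean TPM was largely shared between the species (Spearman rho 0.87 across the 4552 orthogroups, which are not independent replicates).

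**Figure D3:**
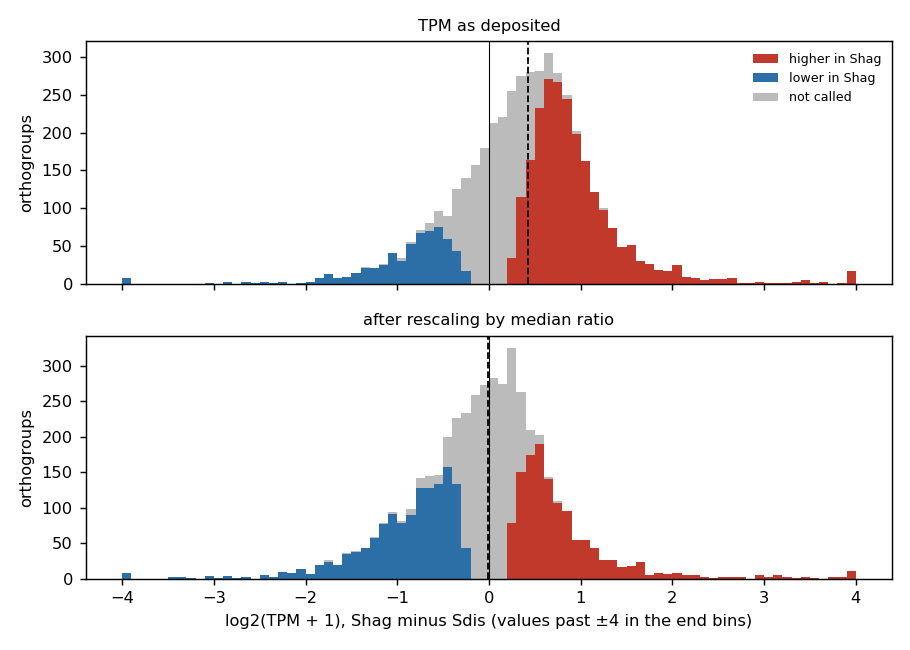
Number of orthogroups by their difference in log2(TPM + 1), Shag minus Sdis, in bins of equal width, with TPM as deposited (above) and after rescaling by the median ratio (below); red, called higher in Shag; blue, called lower; grey, not called; dashed line, the median. The median lies at 0.43 above and at -0.01 below, and the called orthogroups split into 2292 and 609 above and into 1286 and 1368 below.

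Because TPM divides a fixed total among all transcripts, the excess of higher orthogroups was looked for in the share taken by the most abundant ones. The 100 highest orthogroups of a library took 49.1%, 45.3%, 51.4% and 42.3% of TPM in Shag and 54.4%, 54.9%, 55.3% and 56.1% in Sdis. All Shag libraries were below all Sdis libraries, with means of 47.0% ± 4.02 in Shag and 55.2% ± 0.738 in Sdis (SD, n = 4 each; exact two-sided permutation p = 0.0286). The 1000 highest took 83.7% ± 2.17 in Shag and 87.9% ± 0.910 in Sdis (exact permutation p = 0.0286), again without overlap. The 10 highest alone showed no such gap, with 13.7% ± 1.14 in Shag and 12.5% ± 0.378 in Sdis (exact permutation p = 0.143), nor did the single highest, *TDH* (exact permutation p = 0.400). In these bulk cultures a smaller share of cells with a transcript and fewer transcripts per cell cannot be told apart.

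**Figure D4:**
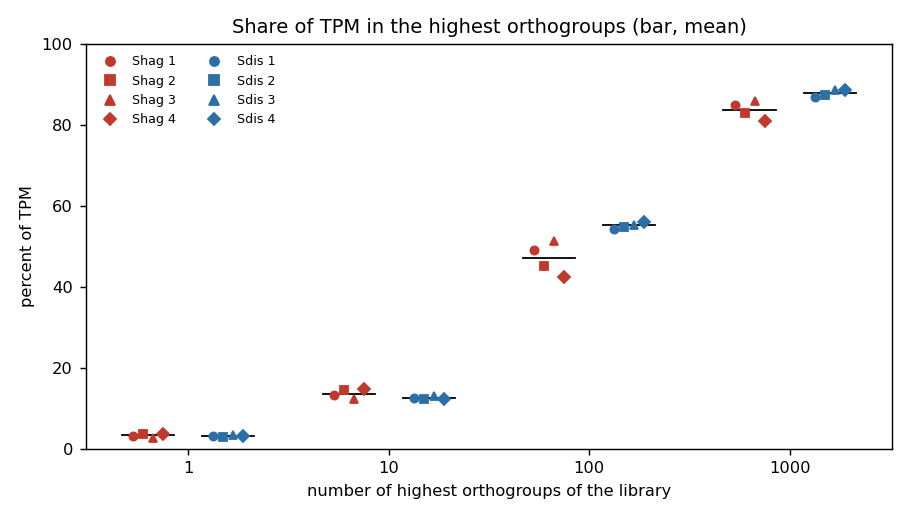
Percent of TPM in the 1, 10, 100 and 1000 highest orthogroups of each library of Shag (red, left) and Sdis (blue, right), with the mean as a bar. For 100 orthogroups the Shag libraries lie between 42.3% and 51.4% and the Sdis libraries between 54.4% and 56.1%, with Shag replicates 3 and 4 at the ends of the Shag range.

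To see which abundance class gave way without using the species compared, the 4173 tested orthogroups with a value in Smen and Ssil were ranked by their mean level in those 2 species. The 20 highest had a median difference of 0.67, with 14 of 20 (70%) called higher in Shag against 50.4% of all tested, and took 12.1% to 15.8% of TPM in Shag against 10.4% to 11.2% in Sdis. After rescaling 7 of the 20 (35.0%) were called higher, against 28.3% of all tested, and 2 (10%) lower, against 30.1%. Ranks 21 to 50 had a median difference of 0.24, with 43.3% called higher and 23.3% lower. The summed share of ranks 51 to 500 was lower in Shag. Ranks 101 to 200 took 18.6%, 15.9%, 20.6% and 14.0% of TPM in Shag and 21.6%, 22.2%, 22.2% and 22.7% in Sdis, and ranks 201 to 500 took 15.5% to 19.2% in Shag and 20.1% to 20.7% in Sdis. In neither class did the species overlap.

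Within ranks 51 to 100 and 101 to 200, 14 of 50 (28.0%) and 38 of 100 (38.0%) orthogroups were called higher in Shag, below the 50.4% of all tested, and 17 of 50 and 33 of 100 were called lower. The share called lower, 34.0% and 33.0%, stood above the 13.4% of all orthogroups tested, and after rescaling it was 46.0% and 49.0%, against 30.1%. Ranks 201 to 500 had a median difference of 0.26, with 44.7% called higher and 20.7% lower. From rank 501 down to rank 4173, the median difference was 0.40 to 0.46, with 49.8% to 54.8% called higher and 11.6% to 12.7% lower, close to the whole. No test compared the classes.

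Coding length separated the orthogroups of ranks 101 to 500 further. The 226 with a mean coding length under 300 codons (median 162) took 26.9%, 22.9%, 29.9% and 20.1% of TPM in Shag and 31.8%, 32.4%, 31.7% and 33.3% in Sdis, with no overlap between the species. The 173 with 300 codons or more took 9.28% to 9.71% in Shag and 9.78% to 10.7% in Sdis. Their median differences were 0.13 for the short and 0.37 for the long orthogroups. Most of the smaller share of TPM in ranks 101 to 500 of Shag was thus in short coding sequences. Over all lengths, the median difference was 0.31 for orthogroups under 150 codons and 0.56 for those of 600 codons or more, with 44.9% and 58.4% called higher. These lengths were inferred from the ratio of counts to TPM, and they name no function.

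**Figure D5:**
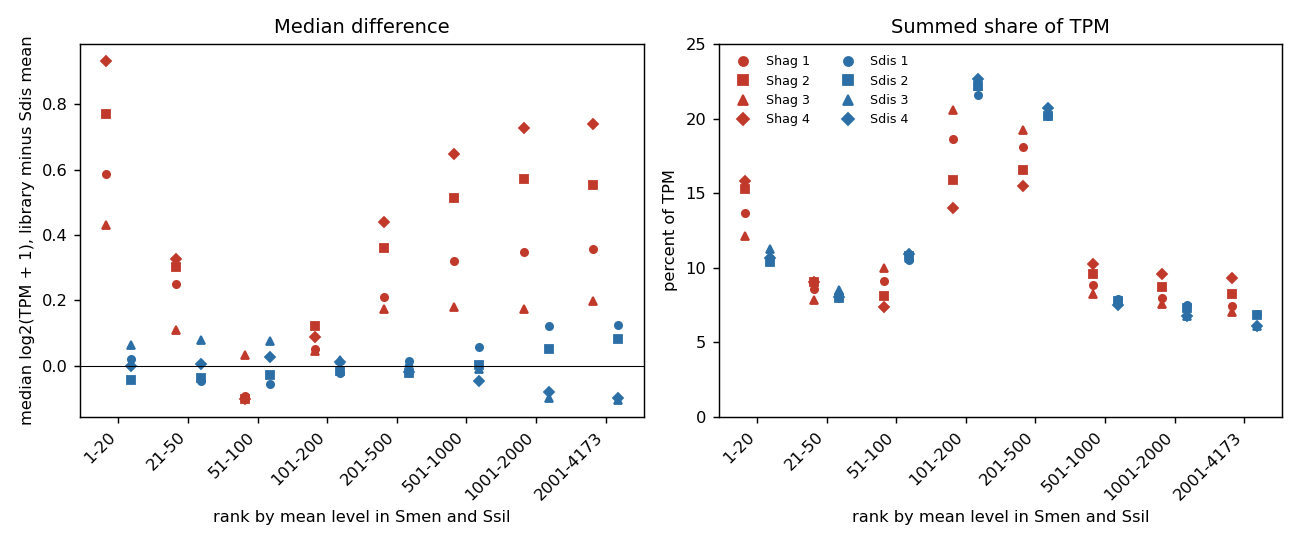
Orthogroups in 8 classes by rank of their mean level in Smen and Ssil; each point is a library of Shag (red, left) or Sdis (blue, right). The left panel gives the median difference of log2(TPM + 1) between the library and the mean of Sdis, and the right panel the summed percent of TPM: Shag is above Sdis in the 20 highest and from rank 501 down, and below it in ranks 51 to 500 of the right panel.

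The Shag replicates differed among themselves in the median shift that separates Shag from Sdis. Shag replicate 3 was the lowest of the 4 Shag libraries in 2949 of the 4552 orthogroups (64.8%) and replicate 4 the highest in 3128 (68.7%). Measured against the mean of Sdis, the median difference of a Shag library was 0.33, 0.54, 0.19 and 0.69, and that of a Sdis library was 0.10, 0.05, -0.07 and -0.08. By this median every Shag library was above every Sdis library, with replicate 3 the nearest to Sdis and replicate 4 the farthest. The order does not hold for each gene: for *ADH*, replicate 3 was the Shag library farthest from Sdis. The chi-square per degree of freedom of gene counts between Shag replicates 3 and 4 was 333, against 8.33 to 40.0 between Sdis replicates and 30.2 to 208 between the other Shag pairs. Without Shag replicate 3 the calls were 2685 higher and 754 lower with a median difference of 0.53, and without Shag replicate 4 they were 1982 higher and 568 lower with a median of 0.34.

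A difference of more than 2-fold was called for few orthogroups. Tested against a threshold of 2-fold in limma (treat), 127 orthogroups were higher and 37 lower in Shag. Of the 127, 95 had a value in both low ECAR species, and for 49 of these (51.6%) the means of both Smen and Ssil on the log2 scale lay nearer to Shag than to Sdis, against 12 (12.6%) for which both lay nearer to Sdis. Over all 4173 orthogroups these shares were 46.3% and 16.1%. Of the 37 lower in Shag, 27 had both values, and the balance was the reverse, with 6 (22.2%) nearer to Shag and 15 (55.6%) nearer to Sdis.

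Genes of unequal length were frequent among these orthogroups. Where both species had the same number of genes, the coding length differed by more than 10% in 17 of 117 (14.5%) orthogroups at least 2-fold higher in Shag and in 5 of 32 (15.6%) at least 2-fold lower, compared with 189 of 4462 (4.24%) over all tested. Lengths were identical in 47.0% and 62.5%, compared with 59.7% over all. TPM divides counts by that length, and the part of length in these differences was not tested. Without gene length and with no fold threshold, 2138 of 4533 orthogroups were called higher and 724 lower in Shag. Orthogroups with more genes in Shag (53) had a median difference of 0.12 and those with more genes in Sdis (18) one of 0.03, both below the 0.44 of the 4462 with equal numbers, and their part in the result was not tested.

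The clearest separations between replicates were found in orthogroups that no source used here names. The 2 called orthogroups higher and the 2 lower in Shag were picked from these data for that gap. Their p-values are therefore no independent support. OG0000132, with a mean of 0.098 TPM in Sdis, and OG0003800, with 3.30 TPM in Shag, passed the filter only through the species where they are high. OG0000132 had 179, 275, 124 and 339 TPM in Shag, while its Sdis libraries held 1, 3, 1 and 1 counts. It is formed by 2 genes of 1069 codons in all in Shag and by 1 gene of 407 codons in Sdis, and it was also high in Smen (802 to 853 TPM) and Ssil (2627 to 2781 TPM). The ratio of mean TPM was 2348, with a 95% exact Poisson interval of 1079 to 6397 for the 6 counts of Sdis, which covers counting error only. The fitted difference of 7.61 (SE 0.28; limma adjusted p = 1.41e-07) depends on the pseudocount.

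OG0001933 was higher in Shag, at 242, 279.6, 217 and 294.2 TPM, against 8.73, 7.90, 8.59 and 9.34 TPM in Sdis. The difference was 4.74 (SE 0.13; limma adjusted p = 1.16e-08), with coding lengths of 510 codons in Shag and 413 in Sdis. Here Smen (8.85 to 10.9 TPM) and Ssil (25.7 to 39.8 TPM) were low, so the high level was found in Shag alone of the 4 species.

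OG0004381 was lower in Shag, at 18.2, 20.5, 23.3 and 23.2 TPM, against 3066, 2949, 2953 and 2881 TPM in Sdis. In Sdis libraries it was the 85th to the 95th highest orthogroup. Its difference was -7.06 (SE 0.10; limma adjusted p = 1.85e-10), its coding length was 310 codons in Shag and 531 in Sdis, and Smen was at 37.3 to 45.9 TPM, while Ssil had no value. OG0003800, with long genes of 2985 codons in Shag and 3108 in Sdis, had 3.39, 3.63, 2.46 and 3.72 TPM in Shag and 197, 201, 206 and 213 TPM in Sdis. Its difference was -5.59 (SE 0.13; limma adjusted p = 8.77e-09), and Smen (2.98 to 3.39 TPM) and Ssil (2.71 to 3.80 TPM) were as low as Shag.

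Orthogroups with a value in a single species of the pair took little of the transcriptome, and more of it in Shag. The 93 orthogroups of Shag without Sdis took 2.47%, 2.68%, 2.29% and 2.76% of TPM in Shag, and the 65 of Sdis without Shag took 1.29%, 1.31%, 1.17% and 1.28% of TPM in Sdis. *TPI* alone held 18.9% to 25.2% of the Shag share, and without it the others took 1.86% to 2.1% of TPM. Of the 93, 74 had a mean of at least 5 TPM and 37 of at least 50 TPM; of the 65, 53 and 14 did. Their median level was 36.3 TPM in Shag and 20.6 TPM in Sdis, compared with 48.8 TPM in Shag and 35.2 TPM in Sdis for the tested orthogroups. No test was made, since the compared species has no value.

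Many of these orthogroups were not particular to the pair. Among the 93 of Shag, 35 also had a value in both Smen and Ssil, 8 in Smen alone, 9 in Ssil alone and 41 in neither. Among the 65 of Sdis the numbers were 24, 9, 11 and 21. The median level of those found in neither low ECAR species was 30.6 TPM in Shag and 11.9 TPM in Sdis, and 16 of 41 in Shag and 2 of 21 in Sdis reached 50 TPM. Coding sequences were short, with a median of 273 codons in Shag and 213 in Sdis for the orthogroups that could be tied to genes, against 416 for tested orthogroups.

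A few orthogroups made up most of these shares, the 4 highest holding 81.5% of the sum in Shag and 85.0% in Sdis. The highest in Shag, OG0004811, had 8965, 9468, 8936 and 9836 TPM from 1 gene of 252 codons, and it was the 7th highest orthogroup of each Shag library. It had no value in any of the other species. The next was *TPI*. In Sdis, OG0004798 had 4650.4, 4836, 4589 and 5013 TPM from a gene of 137 codons, and OG0004796 had 4739, 4644, 3478 and 4180.0 TPM from a gene of 99 codons. Both had values in the low ECAR species, with means of 3673 and 3363 TPM in Smen and 289.1 and 219 TPM in Ssil.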

How the data were processed

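Poly(A) RNA was sequenced with a directional kit. Reads were trimmed with Trimmomatic 0.30, aligned with HISAT2 2.1.0 and counted per gene with HTSeq 2.0.3, per the submitters' processing notes. The genome builds are not given in the sources used here. The deposited values per gene are expected counts made by the authors, some with decimals, as pairs fitting several genes were shared in fractions. The TPM values were computed by the authors from counts and gene lengths summed over each OrthoFinder orthogroup and deposited as 1 table.

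Levels were tested as log2(TPM + 1) with limma 3.58.1 (R 4.3.3), the 8 libraries of both species, a variance trend and Benjamini-Hochberg adjustment, for orthogroups with a mean of at least 5 TPM, at an adjusted p of 0.05. Single values were compared with exact two-sided permutation tests (scipy 1.17.1). edgeR 4.0.16 and DESeq2 1.42.0 were run on orthogroup counts rounded to whole numbers, with length as an offset. Reads without a gene (4.10% to 10.9%) were left out.

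Genes were tied to orthogroups where their counts, or the sum of up to 4 genes, had the proportions of the TPM over the 4 libraries to within 1e-08. In Shag 4805 of 4840 and in Sdis 4780 of 4812 orthogroups were tied, with at least 99.8% of TPM. The tying of genes and the main fit were tried on simulated data. For the fit, a minority of orthogroups was changed, balanced in direction, with the same length in both species. It did not cover a shift of the median such as the one seen here. Within an orthogroup only summed lengths are known, so members were compared as counts and not scaled by length as planned.

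Named were the genes of the study's lists (all 21 IDs were tied), the 2 called orthogroups higher and the 2 lower in Shag with the largest gap between replicates, and the 2 highest orthogroups found in a single species of the pair. The members, lists and tests were chosen with earlier results of these data known. Classes by level, by length and by the nearer low ECAR species were chosen after values were seen. Alternatives were other pseudocounts and filters, rescaling by median ratio or quantiles, no length, no trend, all 16 libraries, a replicate block, a 2-fold threshold, the count tests, orthogroups of 1 gene and leaving out each replicate.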

Additional observations from a re-analysis of the deposited data

Results flagged for a closer look

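Among the groups of 4 replicates examined, 4 held a library far from the others by Dixon's criterion, which chance meets in about 1 of 20 groups; 43 groups were examined. *HXT* in Sdis was highest in replicate 3, at 2469 TPM, and *GAL4* in Shag was lowest in replicate 3, at 67.1 TPM. OG0000132 in Sdis was highest in replicate 2, at 0.18 TPM, which is 3 counts against 1 in each other library. Reads outside genes were highest in Sdis replicate 4, at 9.20% of the reads.

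Genes tied to no orthogroup of the table, which no comparison above uses, held up to 1.67% of the counts in a Shag library (177 genes) and up to 1.99% in a Sdis library (138 genes). In Sdis a single such gene, g002364, singled out after its values were seen, took 0.730% to 0.887% of the counts.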

How the results depend on the processing

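The count of orthogroups higher and lower in Shag, 2292 and 609 in TPM, was 1286 and 1368 after median-ratio rescaling, 1365 and 1244 after quantile normalization, 1322 and 1266 in edgeR, 1369 and 1400 in DESeq2, 952 and 388 at a mean of at least 50 TPM and 127 and 37 for a difference over 2-fold. Leaving out each replicate gave 1850 to 2685 higher and 458 to 754 lower, and median differences of 0.34 to 0.53. A replicate block gave 2147 and 552 and changed no call of a named gene. The sources used here do not say whether same-numbered samples belong together. The deviations of same-numbered libraries correlated at -0.16, 0.03, 0.36 and -0.33, which cannot settle it. The sign in TPM was positive for 8 of the 9 named genes compared and turned after median-ratio rescaling, in edgeR and in DESeq2 for *HXT* (-0.33, -0.32 and -0.33), *HXK* (-0.10, -0.089 and -0.10; 0.15 and no longer called after quantile normalization), *PFK* (-0.046, -0.035 and -0.044), *FBA* (-0.20, -0.18 and -0.19), *TDH* (-0.38, -0.37 and -0.38), *GPM* (-0.44, -0.43 and -0.44), *ENO* (-0.45, -0.44 and -0.45) and *GAL4* (-0.39, -0.39 and -0.40); the causes were not tested beyond the shift of the median. *HXT* was called higher after quantile normalization (0.44) and lower in DESeq2 (adjusted p = 0.0215). *FBA* was called higher after quantile normalization (0.31), in the fit over all 16 libraries and without Shag replicate 3 (0.30). DESeq2 also called *TDH* (adjusted p = 0.00138), *GPM* (0.000289), *ENO* (0.000264) and *GAL4* (0.00291) lower in Shag. In edgeR *GPM* (adjusted p = 0.0311) and *GAL4* (0.0135) were called lower. None of the 9 genes compared passed the 2-fold threshold. Of the orthogroups in a single species, 37 in Shag and 14 in Sdis were left at 50 TPM, and 90 and 62 were above 0 in all 4 replicates. *ADH* kept direction and call in the settings that held it except the 2-fold threshold. The 4 named orthogroups without a gene name kept theirs there too, but they had been picked for their large gaps in these data. The difference in the share of the 100 highest orthogroups, -8.17 percentage points, ranged from -9.62 to -6.61 as each replicate was left out, and that of the 10 highest, 1.15, from 0.80 to 1.63.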
